A study of Homo sapiens with 4 samples.

Results

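Cells of the BJ-TE line carrying a short hairpin RNA (shRNA) against p73 were set against the same cells with a control hairpin, labelled ns shRNA, while the cultures were still sparse, at 40% confluence. The comparison takes 2 of the 4 arrays of the series, chosen by their titles: 1 array of ns shRNA and 1 of p73 shRNA. The other 2 arrays hold the same pair of hairpins at 100% confluence and are given beside the sparse cells as separate values. BJ cells are human foreskin fibroblasts, and all 4 cultures were of the TE derivative of them. Total RNA was labelled with biotin and hybridised to Affymetrix expression arrays of 22277 probe sets. By its title the series asks about p73 in malignant transformation.

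The hairpins limit what can be read from the pair. Each group is 1 culture of 1 line with 1 hairpin, no second hairpin against p73 was analysed here, and the labels do not say how the hairpins were delivered or for how long. With 1 array per group there is no replicate error and no test, so every value below is a description of these arrays. Ratios are log2 of p73 shRNA over ns shRNA, computed after adding 11.6, the 20th percentile of the intensities, to each value. This pseudocount understates the ratio of dim genes.

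p73 is a transcription factor of the p53 family, encoded by TP73. It binds the same kind of DNA element as p53, can switch on genes of cell cycle arrest and cell death, and is made in long and in amino-terminally truncated forms with opposing actions. Loss of p73 function in fibroblasts has been tied to growth without anchorage.

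The target of the hairpin could not be checked. The only probe set named TP73 read 1.68 on the ns and 2.09 on the p73 shRNA array at 40%, and 1.65 and 2.04 at 100%, between the 2.17th and 3.84th percentile of its array. All 4 values lie at the floor, so they say nothing about which array carried the p73 hairpin. All 5 probe sets of MDM2, the ubiquitin ligase that p53 family members induce, also lay below the brightness filter, and at 40% their ratios ran from -1.004 to 1.87. Fibroblast markers were present on both arrays. The 16 of the list had a summed intensity of 85229 (ns) and 94898 (p73 shRNA) at 40%. Vimentin, VIM, made 18418 and 28440 of these sums. Of those above the brightness filter 3 were at least 1.5-fold higher (all genes: 4.81%) and 2, LUM and PDGFRA, lower (all genes: 6.63%). Of the 16 fibroblast markers 15 passed the filter. Only 3 of 14 epithelial, 2 of 10 endothelial, 1 of 8 blood and 1 of 5 melanocyte and neural crest markers did, and 5, 1, 4 and 1 of these lists were below 11.6 on both arrays.

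The filter kept 6759 of 11963 named genes, those whose brightest probe set had a mean over the 4 arrays of at least 6.94 on the log2 scale, an intensity of about 111. Of these, 43 were at least 2-fold higher with p73 shRNA at 40% confluence (0.636%) and 78 at least 2-fold lower (1.15%). At 1.5-fold the counts were 325 higher (4.81%) and 448 lower (6.63%). Past 3-fold there were 3 higher and 11 lower genes. The confluent pair differed less. There 21 genes were 2-fold higher (0.311%) and 24 lower (0.355%), with 128 (1.89%) and 155 (2.29%) at 1.5-fold, and the standard deviation of the ratio over genes was 0.28 against 0.39 at 40%. Nearest to the line at 40% were MDK (1.006) and IGFLR1 (1.008) just inside and HINFP (0.995) and STARD8 (0.992) just outside among higher genes. IBTK (-1.001) and PTP4A1 (-1.012) stood just inside and TUBGCP5 (-0.995) and MAN2B2 (-0.993) just outside among lower genes.

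**Figure D1:**
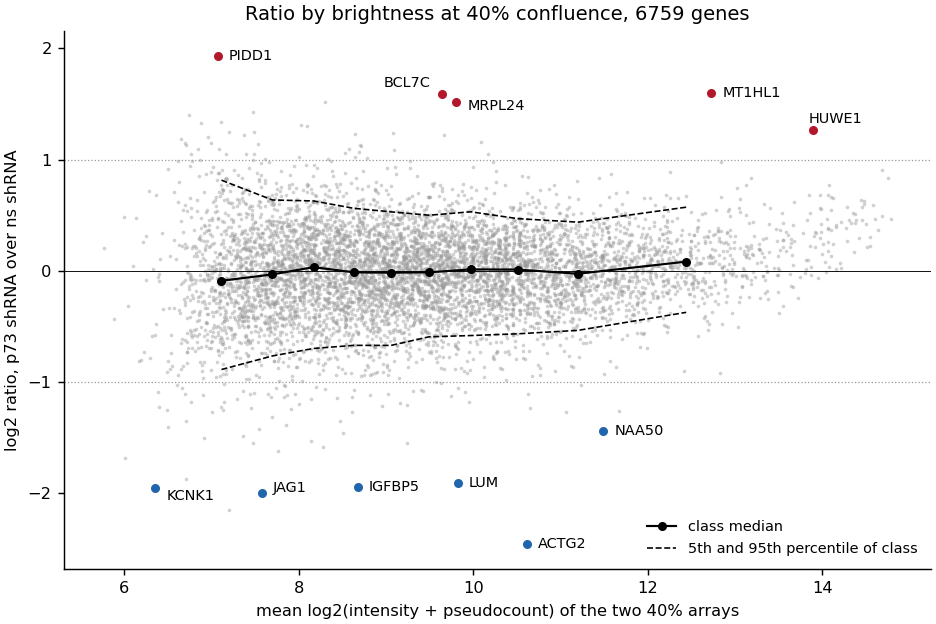
Log2 ratio of p73 shRNA over ns shRNA at 40% confluence against the mean log2(intensity + 11.6) of both arrays, 1 grey point per gene for 6759 genes; the black line joins the medians of 10 brightness classes, dashed lines their 5th and 95th percentiles, and dotted lines mark 2-fold. The class medians stay between -0.09 and 0.08, while the cloud of the brightest genes lies above 0, and the lowest named genes are spread from dim (KCNK1) to bright (NAA50).

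ACTG2, the gamma-actin of enteric smooth muscle, had the lowest ratio of all 6759 genes. Its intensity was 3685 with ns shRNA and 660 with p73 shRNA at 40%, a ratio of -2.46, and 3033 and 503 at 100%, a ratio of -2.56. Both p73 shRNA arrays were low and both ns arrays high, with no overlap. The actin-bundling protein LCP1 read 368 and 112 at 40% (-1.62) and 359 and 136 at 100% (-1.33). LUM, lumican, a proteoglycan that spaces collagen fibrils, was at 1746 and 457 (-1.91) in sparse cells and at 5199 and 3020 (-0.78) in confluent ones. LAMA5, a chain of basement membrane laminins, stood at 104 and 24.3 (-1.69) and then 408 and 281 (-0.52). For LUM and LAMA5 both arrays of confluent cells were brighter than both arrays of sparse cells, and within each stage the p73 shRNA array was the dimmer one.

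Among membrane proteins with low ratios, SLC38A4, a transporter of neutral amino acids, read 298 (ns) and 58.1 (p73 shRNA) at 40% (-2.15) and 162 and 94.5 at 100% (-0.71). KCNK1, a potassium leak channel, was at 150 and 29.97 (-1.96) and at 421 and 96.7 (-1.998). The adhesion molecule CADM1 was at 189 and 43.0 (-1.88) and at 447 and 57.1 (-2.74). At each stage the p73 shRNA array was the lower one for all of these. Their other probe sets were dimmer than the filter: that of KCNK1 had a ratio of -1.55 at 40%, and those of CADM1 had -2.31 and -1.13.

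Among ligands and their binding proteins, JAG1, a ligand of Notch receptors, was at 371 and 84.2 at 40% (-1.998) and at 158 and 71.4 at 100% (-1.03). Its second probe set above the filter gave -1.69 at 40%, and the remaining 2, at intensities under 25 at that stage, gave -0.02 and 1.24. IGFBP5, which binds insulin-like growth factors in the matrix, was at 791 and 197 (-1.94) and at 1586 and 486 (-1.68). The 4 dimmer probe sets of IGFBP5 ranged from -1.17 to 0.93 at 40%, and 3 of them were lower. TGFB2, a transforming growth factor beta ligand, read 466 and 154 (-1.53), then 215 and 92.7 (-1.12). EDN1, the vasoconstrictor endothelin-1, read 596 and 240 (-1.27), then 126 and 22.7 (-2.01). TCIM, a small regulator of transcription, had 463 and 110 (-1.96), then 393 and 159 (-1.25). For each of these genes the ns array was the brighter one at both stages.

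A further set was low at 40% and close to equal at 100%. ACSL4, an acyl-CoA synthetase that prefers polyunsaturated fatty acids, was at 526 and 167 in sparse cells (-1.59) and at 382 and 367 in confluent cells (-0.06). HAUS6, a subunit of the augmin complex of the mitotic spindle, was at 293 and 92.4 (-1.55) and at 272 and 267 (-0.03). GNPTAB, a subunit of the enzyme that marks lysosomal hydrolases with mannose phosphate, was at 1026 and 343 (-1.55) and at 991 and 839 (-0.24). In all 3 the p73 shRNA array at 40% was the single low array of the 4. NAA50, an amino-terminal acetyltransferase, was the brightest of the lowest 25, at 4723 and 1728 (-1.44) and then 3217 and 2808 (-0.20). The DNA helicase BRIP1 (-1.42 and -0.12 at 100%), the RNA polymerase III subunit POLR3F (-1.39 and -0.22), the zinc finger genes ZNF184 (-1.49 and -0.04) and ZNF426 (-1.35 and -0.18) and the membrane peptidase ERMP1 (-1.41 and -0.06) had the same form. RAB33B, a GTPase of the Golgi, had -1.35 at 40% and 0.13 at 100%, and the cytokine signalling suppressor SOCS6 had -1.32 and 0.03, although a second SOCS6 probe set gave -0.12 at 40%. FAM234B (-1.50 and -0.25) and RWDD3, which promotes sumoylation (-1.46 and -0.77), complete the lowest 25. Unlike the others of this paragraph, RWDD3 was also more than 1.5-fold lower at 100%.

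The highest ratio was that of PIDD1, a death-domain scaffold known as a p53 target. Its intensity was 57.1 with ns shRNA and 251 with p73 shRNA at 40% (1.93), and 119 and 178 at 100% (0.54). The ns array at 40% lay below the filter intensity of about 111 and was the lowest of the 4. MT1HL1 was far brighter, at 3905 and 11814 at 40% (1.59) and 2115 and 7080 at 100% (1.74). It belongs to the metal-binding metallothioneins, whose near-identical transcripts its probe set may also bind. SOX12, a transcription factor, was at 62.5 and 175 (1.33) and at 72.0 and 208 (1.39), and MX2, an interferon-induced GTPase that blocks viruses, at 54.4 and 163 (1.40) and at 110 and 230 (0.99). PIDD1, MT1HL1, SOX12 and MX2 thus each had both p73 shRNA arrays above both ns arrays.

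Several of the other high genes were close to equal, or lower, in confluent cells. GSTM2, a glutathione transferase, was at 175 and 522 at 40% (1.52) and at 539 and 368 at 100% (-0.54). BCL7C, a subunit of SWI/SNF chromatin remodellers, was at 447 and 1372 (1.59) and at 653 and 833 (0.35). MRPL24, a protein of the mitochondrial ribosome, was at 518 and 1502 (1.52) and at 1069 and 1201 (0.17). In BCL7C and MRPL24 it was the ns array at 40% that was lowest and the p73 shRNA array at 40% that was highest. TOMM22, a receptor for mitochondrial protein import, was at 717 and 1615 (1.16) and at 434 and 430 (-0.01). CACNG4, an auxiliary subunit of ion channels, had 1.43 and -0.24. LAMA4, another laminin chain, had 1.34 and 0.72, opposite in direction to LAMA5 at both stages. The trafficking factor TRAPPC12 (1.31 and 0.53), the autophagy lipid transfer protein ATG2A (1.30 and 0.42), the ubiquitin ligase adaptor KLHL12 (1.25 and 0.45) and NPLOC4, a cofactor of the p97 segregase (1.24 and 0.29), were higher at both stages. CINP (1.25 and -0.10), the galactokinase GALK1 (1.18 and -0.25), the anion transporter SLCO4A1 (1.15 and -0.07), phospholipase PLD1 (1.15 and -0.06) and FLAD1, the FAD synthase (1.13 and -0.26), were not. AXIN1, the scaffold that holds beta-catenin for destruction, had 1.21 and 0.08. Several of these genes were dim on the ns array at 40%, below the filter intensity of about 111. They were CACNG4, LAMA4, KLHL12, CINP, GALK1, SLCO4A1, PLD1 and AXIN1, with ns intensities from 55.1 (GALK1) to 104 (KLHL12).

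**Figure D2:**
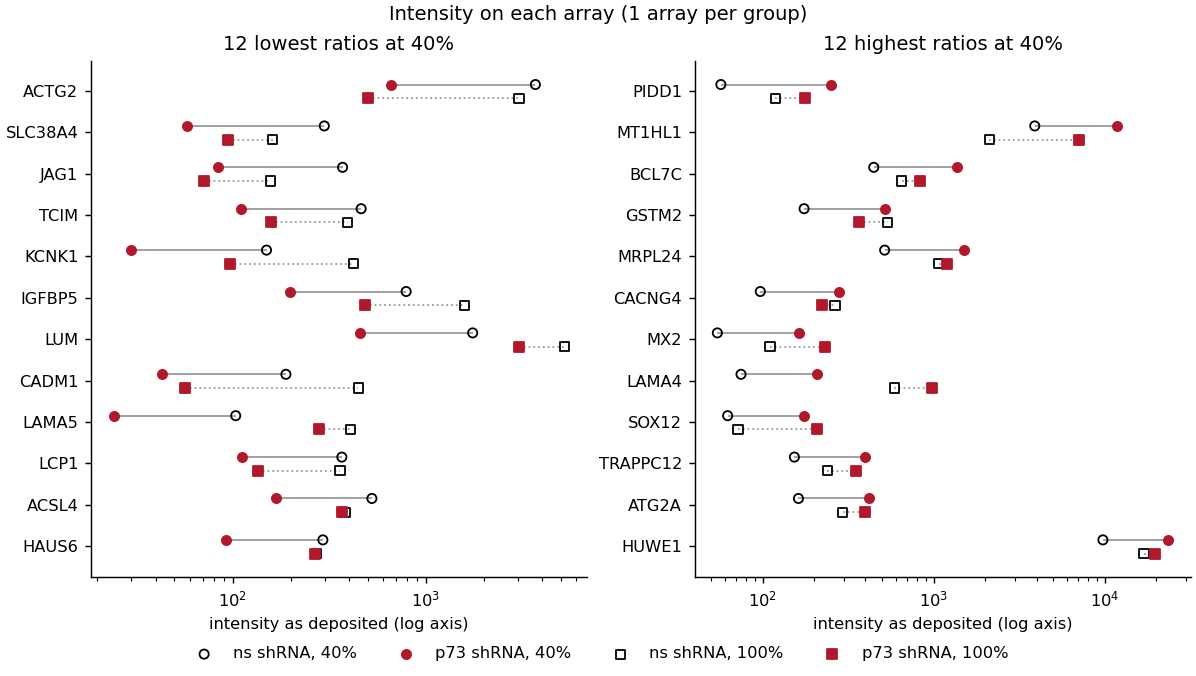
Deposited intensity on a log axis for the 12 genes with the lowest (left) and the 12 with the highest (right) ratio at 40% confluence; open symbols are ns shRNA, filled red symbols p73 shRNA, circles 40% and squares 100%, 1 array per symbol. ACTG2 has the same gap at both stages, from 3685 to 660 and from 3033 to 503, whereas ACSL4 and HAUS6 are apart at 40% and nearly coincide at 100%.

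The only repeat measurement inside the pair comes from genes with several probe sets, which share the RNA and the array and so cover probe error alone. Over 5424 probe sets of 2231 such genes, ratios at 40% differed within a gene with a standard deviation of 0.35, close to the 0.39 over all 9952 probe sets, and at 100% with 0.22 against 0.28. Of the 43 genes at least 2-fold higher, 33 had a single probe set above the filter. Of the other 10, 6 had all probe sets in the same direction and 1 had all at least 1.5-fold. Of the 78 lower genes 55 had a single probe set. Of the other 23, 14 had 1 direction and 4 were all at least 1.5-fold. The same shares over all 2231 genes were not computed, so these counts stand without a background.

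Genes whose probe sets ran together on the lower side included JAG1, the neural adhesion molecule L1CAM (-0.90 and -1.01), the retinol dehydrogenase RDH11 (-0.89 and -0.91), and PTPN2, a phosphatase that acts on cytokine signalling (-0.88 and -1.16). L1CAM was at 2671 and 1422 at 40% and at 3863 and 2256 at 100% on its brighter probe set. RDH11 was at 1346 and 718 and then 2594 and 1268. PTPN2 was at 1187 and 639 and then 988 and 942, so it was low on the p73 shRNA array of sparse cells only among these 4 arrays. All 3 probe sets of LIMCH1, an activator of non-muscle myosin, lay between -0.89 and -0.72, and both of GPRC5A, an orphan receptor, at -0.73 and -1.04. The amino acid transporter SLC1A4 (-0.74 and -0.79), PAWR, a regulator of apoptosis (-0.73 and -0.79), the urea cycle enzyme CPS1 (-1.12 and -0.72), CSGALNACT2, which starts chondroitin sulfate chains (-1.12 and -0.69), the adaptor SH3BP2 (-0.93 and -0.69) and the collagen gene COL18A1 (-0.67 on both) followed.

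On the higher side were SQSTM1, the autophagy receptor p62 (0.83 and 1.39), PDCL (1.07 and 0.73), TMEM259 (0.70 and 0.73), the lipid enzyme AGPAT2 (0.66 and 0.65), RBKS, ribokinase (0.64 and 0.78), the kinase MAPK7 (0.61 and 1.14), the ubiquitin-conjugating enzyme UBE2H (0.59 and 0.65), the pro-apoptotic BAD (1.01 and 0.53), GSTM1 (0.59 and 1.06) and the mitochondrial cyclophilin PPIF (0.67 and 0.53). SQSTM1 was at 2077 and 3708 in sparse cells and at 1818 and 1819 in confluent cells on its brighter probe set. GSTM1 and GSTM2 are close relatives whose transcripts these probe sets may share. Other high and low genes did not hold across their probe sets. HUWE1, a very large ubiquitin ligase, had 1.26 on 1 probe set and -0.11 on another. DDX27 had 1.22 and -0.05, GIT2 1.14 and -0.29, FLAD1 1.13 and 0.09, and PLEC, the cytolinker plectin, 1.23 and 0.33. Among lower genes the receptor MET had -1.27, -0.09 and 0.37, and PDGFRA, the platelet-derived growth factor receptor alpha, -1.09 and 0.30.

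The upper end of the p73 shRNA array at 40% was brighter than that of every other array. The intensity that the brightest 1 in 1000 probe sets exceeded was 27646 there, against 19343 on the ns array at 40% and 16892 and 19722 on the arrays of confluent cells. It had 104 probe sets above an intensity of 20000, and the others had 17, 2 and 19. Of the 100 genes brightest on the ns array at 40%, 83 were higher with p73 shRNA, with a median ratio of 0.29. After quantile normalization, which gives all arrays the same distribution, 42 of the 100 were higher and the median was -0.04. The class of the 676 brightest genes had a median of 0.08 as deposited and 0.00 after quantile normalization, and the other 9 classes had medians from -0.09 to 0.03. The control probe sets on the array went the same way at the bright end. Those for beta-actin were higher by 0.41 to 0.61, those for GAPDH by 0.52 to 0.59, and the Alu control by 0.60. The 18 probe sets of the added hybridisation controls had a median of -0.11, with ratios from -0.46 to 0.50. The 24 of the added polyadenylated controls had a median of -0.27, with ratios from -0.63 to 0.11. Their median intensities on the ns array at 40% were 1107 and 216, well below the bright end, so these medians do not describe it. Probe sets for 18S and 28S ribosomal RNA were lower, with medians of -1.38 and -0.63. The 3' to 5' ratio was 1.24 (ns) and 1.09 (p73 shRNA) for beta-actin and 0.93 and 0.98 for GAPDH. Quantile and loess correction both pull ratios at the bright end towards 0 by construction, and whether the brightness comes from the array or the cells was not tested.

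Cytosolic ribosomal proteins lie at this bright end, with a median intensity of 15070 on the ns array at 40%. Of 48 genes, 7 were at least 1.5-fold higher (against 4.81% of all genes), 0 lower, and the median was 0.37. It was 0.02 after quantile normalization and 0.12 after a loess correction of the ratio on brightness, with 0 members past 1.5-fold in both. RPL37A of the large subunit was at 19135 and 35948 at 40% (0.91) and 19828 and 21468 at 100% (0.11), and its 2 dim probe sets gave -1.32 and -0.51. RPS15A of the small subunit was at 11678 and 18700 (0.68) and at 12276 and 13414 (0.13). Beta-actin, ACTB, was at 20645 and 36748 on 1 probe set (0.83) and at 21329 and 32202 on the other (0.59), and its 0.83 was 0.27 after quantile and 0.48 after loess correction. The intermediate filament vimentin, VIM, went from 0.63 to 0.15 and 0.31, the tubulin TUBA1C from 0.57 to 0.18 and 0.28, the ferritin light chain FTL from 0.47 to -0.12 and 0.11, and the glycolytic enzyme GAPDH from 0.47 to -0.03 and 0.14. HUWE1 had 0.93 and 1.02 under these settings.

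Interferon-response genes were the list with the most members past 1.5-fold at 40%, 13 of 47 (27.7%, against 4.81% of all genes) with 0 lower, and 40 of the 47 had a ratio above 0. The list had been seen to be high in these arrays when it was drawn up, so its count is a description. The RNA sensors RIGI (0.70 at 40%) and IFIH1 (-1.25) were placed on another list. The 0 lower therefore depends on how the lists were divided. The interferon list's median was 0.42 as deposited, 0.41 after quantile and 0.43 after loess correction. At 100% it was 0.66, with 26 members at least 1.5-fold higher and 0 lower. The list's median intensity on the ns array at 40% was 479, well below the bright end. The brightness class with a median of 525 there had a median ratio of -0.02 as deposited and 0.00 after quantile normalization. Both corrections change little at this brightness, so the kept median is no check on the list. Interferons act through receptors and a signalling complex with IRF9 on an element in the promoters of antiviral genes, the interferon-stimulated response element (ISRE).

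Antiviral effectors held the top of the list. OAS1, which makes oligoadenylates that switch on RNase L, was at 66.8 and 156 at 40% (1.10) and at 105 and 518 at 100% (2.18). MX1, an antiviral GTPase, was at 224 and 456 (0.99) and at 229 and 914 (1.94). TRIM22, an antiviral ubiquitin ligase, was at 64.2 and 145 (1.05) and at 153 and 406 (1.35). For OAS1 and MX1 both p73 shRNA arrays lay above both ns arrays, and for TRIM22 they did not. IFITM1, which blocks viral entry, was at 790 and 1651 (1.05) and at 3556 and 6488 (0.87), so both arrays of confluent cells lay above both arrays of sparse cells. The secreted glycoprotein LGALS3BP was at 268 and 559 (1.03) and at 859 and 1168 (0.44). USP18, which removes ISG15 from proteins, had 0.89, the peptide transporter subunit TAP2 0.81, IFI6 0.72, the immunoproteasome subunit PSMB9 0.70, IRF9 0.66, IFI27 0.61 and IFI44 0.61. Several genes at least 2-fold higher at 100% were higher by less than 1.5-fold at 40%. OAS2 had 0.45 and 1.94, IFIT1 0.43 and 1.43, OAS3 0.29 and 1.17 and the ubiquitin-like ISG15 0.24 and 1.04. The 7 members at or below 0 at 40% were SAMD9 (-0.0050), BST2 (-0.03), IFIT5 (-0.04), GBP2 (-0.12), ADAR (-0.21), TRIM5 (-0.26) and IFI16 (-0.34).

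**Figure D3:**
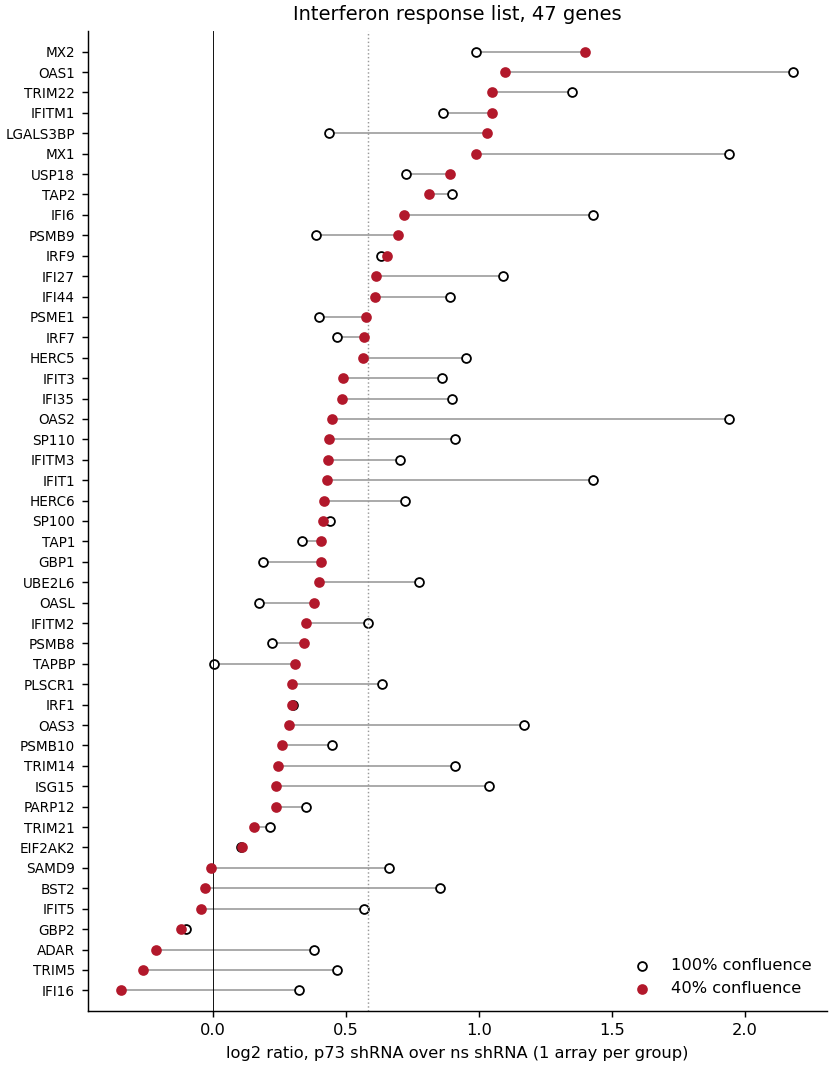
Log2 ratio of p73 shRNA over ns shRNA for the 47 interferon-response genes above the filter, ordered by the ratio at 40% confluence; red points are 40%, open points 100%, 1 array per group, and the dotted line marks 1.5-fold. MX2, OAS1, TRIM22 and IFITM1 lead at 40%, and OAS1, MX1 and OAS2 lie furthest right at 100%.

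The cytosolic sensors of double-stranded RNA went in opposite directions. RIGI was at 181 and 302 at 40% (0.70) and at 277 and 471 at 100% (0.74), whereas IFIH1, the sensor MDA5, was at 127 and 46.8 (-1.25) and at 292 and 429 (0.54). Their adaptor MAVS had -0.43 and 0.04, and DROSHA, the nuclease of microRNA processing, -0.52 and -0.07. Of the 14 genes on this list 1 was 1.5-fold higher and 1 lower. None of the 12 genes on the MHC class I and II list, which also holds ERAP1 (-0.51), was past 1.5-fold either way at 40%. This holds for the brightest probe sets, and other probe sets of HLA-B and HLA-C reached 1.0 and 0.83. Of the 12 genes 6 were above 0. HLA-B and HLA-C are closely alike and may share probes.

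The promoters of 3 higher interferon genes are shown because they carry the ISRE in the form searched, the letters GAAA, any 2 bases and GAAA again on either strand, within 250 bases before and 50 after the start in RefSeq on GRCh38.p14. The matches are in capitals, and each sequence is written along the gene's strand. IFITM1 lies on the plus strand at chr11:313790-314089 with 2 matches, IFI6 on the minus strand at chr1:27672143-27672442 with 3, and MX1 on the plus strand at chr21:41420308-41420607 with 1.
IFITM1: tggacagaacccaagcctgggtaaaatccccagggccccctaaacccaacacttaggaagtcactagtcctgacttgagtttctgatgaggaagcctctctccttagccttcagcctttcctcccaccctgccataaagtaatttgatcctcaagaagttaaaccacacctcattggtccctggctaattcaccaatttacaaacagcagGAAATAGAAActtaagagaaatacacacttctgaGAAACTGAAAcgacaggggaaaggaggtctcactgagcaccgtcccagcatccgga
IFI6: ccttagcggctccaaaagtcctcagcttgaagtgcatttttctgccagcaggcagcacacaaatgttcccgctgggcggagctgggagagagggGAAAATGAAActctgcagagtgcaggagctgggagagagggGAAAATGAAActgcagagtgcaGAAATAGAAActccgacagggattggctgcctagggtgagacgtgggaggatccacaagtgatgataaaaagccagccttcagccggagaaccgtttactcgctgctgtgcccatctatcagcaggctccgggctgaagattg
MX1: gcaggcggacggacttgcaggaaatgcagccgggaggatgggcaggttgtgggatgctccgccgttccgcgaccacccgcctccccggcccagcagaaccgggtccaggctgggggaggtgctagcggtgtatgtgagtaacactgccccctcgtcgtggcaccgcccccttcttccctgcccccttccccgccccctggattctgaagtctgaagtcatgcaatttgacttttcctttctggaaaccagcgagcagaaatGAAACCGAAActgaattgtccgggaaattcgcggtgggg
The element was in 3.65% of 27305 promoters and in 2.94% of the 5716 that belong to genes above the filter. Of the 39 interferon-list genes with a promoter in the table it was in 27 (69.2%). Within that list it did not separate the genes by ratio: 7 of 10 members (70%) past 1.5-fold at 40% had it, and 20 of 29 (69%) of the rest. Of the 312 genes at least 1.5-fold higher that are not on the list, 263 had a promoter in the table and 3 of these (1.14%) had the element. OAS1 and IRF9 had no match in the window, and MX2 and TRIM22 are not in the table. A match is a description of the letters and not a site of binding.

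**Figure D4:**
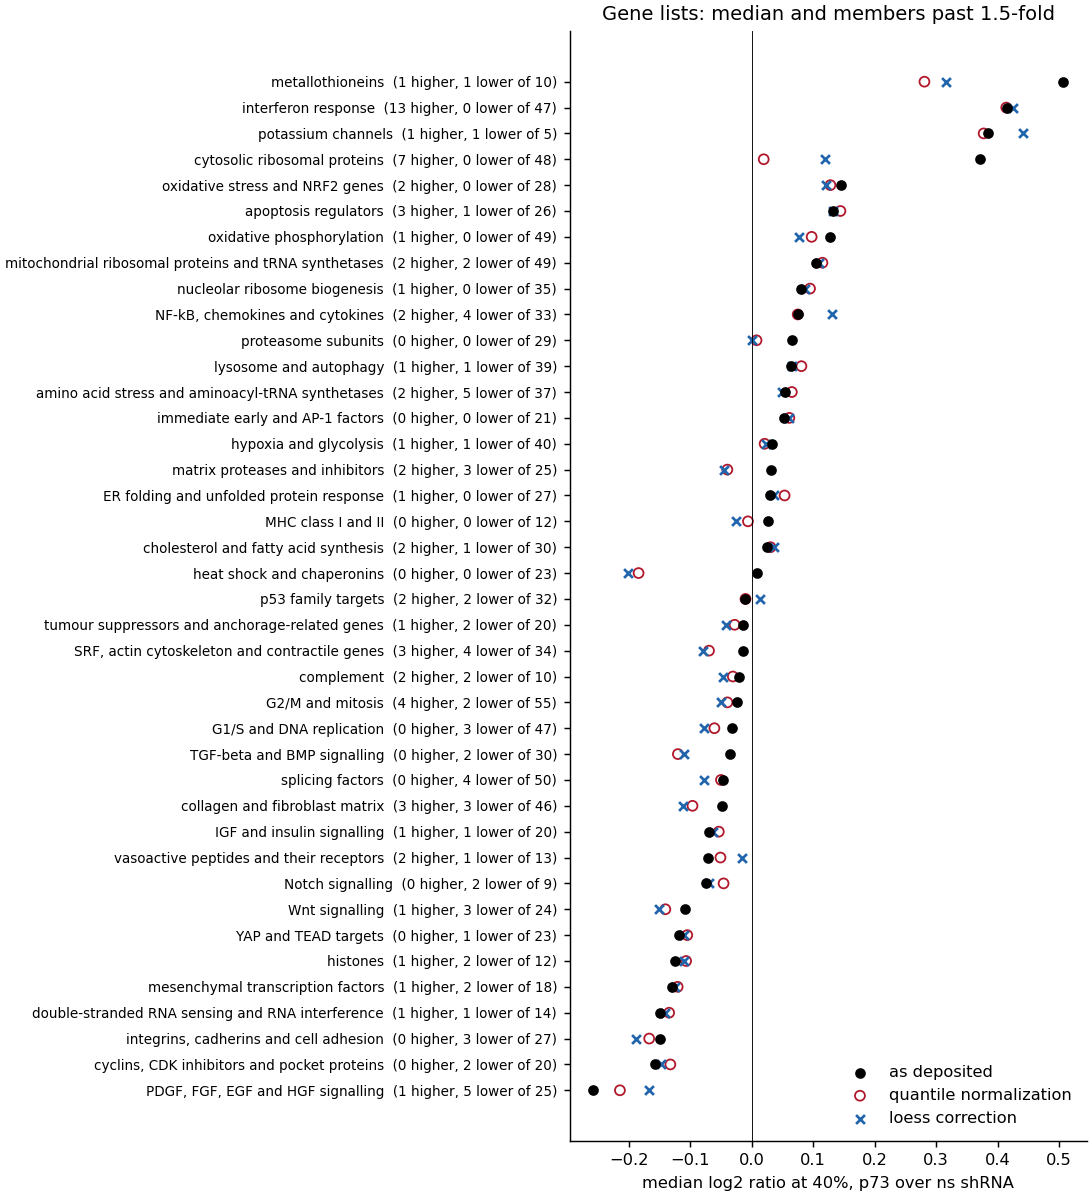
Median log2 ratio at 40% confluence for 40 gene lists, with the number of members at least 1.5-fold higher and lower; black points are values as deposited, red circles quantile normalized and blue crosses loess corrected. Interferon-response genes keep a median of 0.41 to 0.43 under all 3, whereas that of cytosolic ribosomal proteins is 0.37, 0.02 and 0.12. The interferon list, at a median ns intensity of 479, lies below the bright end where the corrections act most.

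Of the 40 lists, 35 had medians within 0.2 of 0, and 4 had no member past 1.5-fold in either direction: MHC genes, immediate early factors, heat shock proteins and proteasome subunits. Among 32 p53 family targets 2 were at least 1.5-fold higher, PIDD1 and TRIM22, and 2 lower, KCNK1 and JAG1, with a median of -0.01. This is 6.25% each way, near the 4.81% and 6.63% of all genes. CDKN1A, the cell cycle inhibitor p21 and the best known target of the family, was at 197 and 191 at 40% (-0.04) and at 681 and 813 at 100% (0.25). The DNA repair gene DDB2 had 0.44 and 0.46, and the stress gene SESN1 -0.55 and 0.47. A p53 half-site was found in the same promoter window of 6.54% of all promoters, 4.92% of those above the filter, 4 of 63 genes (6.35%) at least 2-fold lower and 1 of 35 (2.86%) at least 2-fold higher. Another inhibitor, CDKN1B or p27, was at 1804 and 1254 (-0.52) and at 2201 and 1967 (-0.16).

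Growth factor signalling had the lowest median of the 40 pathway lists as deposited, -0.26 (-0.21 after quantile and -0.17 after loess correction). After loess the heat shock list (-0.20) and the adhesion list (-0.19) were lower. Of 25 PDGF, FGF, EGF and HGF genes 5 were at least 1.5-fold lower (all genes: 6.63%) and 1 higher. MET, the receptor of hepatocyte growth factor, was at 3310 and 1370 on its brightest probe set (-1.27), and PDGFRA at 1387 and 645 (-1.09), both with the disagreement between probe sets given above. The ligand NRG1 was at 1338 and 765 at 40% (-0.80) and at 323 and 215 at 100% (-0.56), and HBEGF at 491 and 305 (-0.67) and at 124 and 81.4 (-0.55). Both ligands were thus dimmer with p73 shRNA at each stage. DUSP4, a phosphatase that limits ERK signalling, had -0.69 and -0.51, and its second probe set gave -0.20 at 40%. FGF5 was the higher one, at 506 and 773 (0.60) and at 114 and 180 (0.61). Its other probe sets gave 0.26 and 0.54 at 40%. The next 3 lists stand beside the same 6.63% lower and 4.81% higher of all genes. In TGF-beta and BMP signalling 2 of 30 were lower, TGFB2 and GDF15, a stress-induced member of the family (117 and 43.6 at 40%, -1.22; -0.50 at 100%). In Notch signalling 2 of 9 were lower, JAG1 and the receptor NOTCH1 (279 and 167, -0.70; -0.54 at 100%). The Notch target HEY1 was at 135 and 202 (0.55) and at 220 and 147 (-0.54). Among 24 Wnt genes 3 were lower, CCND1, ROR1 (-0.80 and 0.28) and APC (-0.59 and -0.15), and AXIN1 was higher. Other probe sets above the filter gave 0.02 for ROR1 and -0.38 for CCND1 at 40%.

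Matrix and adhesion genes were mixed, with 6.63% of all genes 1.5-fold lower and 4.81% higher as the background. Of 46 collagen and fibroblast matrix genes 3 were lower (LUM, COL18A1 and EFEMP1 with -0.65) and 3 higher: LAMA4, the collagen chaperone FKBP10 (0.86 and 0.91) and TGFBI, an integrin-binding matrix protein, at 2245 and 4117 (0.87) and at 5110 and 5283 (0.05). Of 27 integrins, cadherins and other adhesion genes 3 were lower, CADM1, L1CAM and ITGA4 (-0.64 and 0.02), and 0 higher, with 8 above 0 and a median of -0.15. Other probe sets of ITGA4 gave -0.36 and 0.04 at 40%. Of 25 matrix proteases and inhibitors 3 were lower and 2 higher. The coagulation inhibitors TFPI and TFPI2 were on opposite sides on their brightest probe sets. TFPI was at 640 and 336 (-0.91) and at 1894 and 1836 (-0.04), TFPI2 at 890 and 1664 (0.89) and at 1829 and 2898 (0.66). On this probe set TFPI was apart in sparse cells and nearly equal in confluent ones. Other probe sets above the filter gave -0.82, -0.41 and 0.10 for TFPI and 0.52 for TFPI2 at 40%. ADAMTS1, a protease of proteoglycans, was at 1706 and 923 (-0.88) and at 381 and 234 (-0.68).

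Of 34 SRF, actin cytoskeleton and contractile genes 4 were lower (all genes: 6.63%) and 3 higher (all genes: 4.81%), with a median of -0.01. After quantile normalization and after loess correction 1 was higher, and 4 were lower in both. CNN1, calponin, a brake on smooth muscle contraction, was at 790 and 451 (-0.79) and at 702 and 375 (-0.88). FHL3, a LIM-domain protein, was at 105 and 230 (1.05) and at 159 and 300 (0.87), and was the member that stayed 1.5-fold higher after both corrections. CFL1, cofilin, went from 0.77 as deposited to 0.41 and 0.51. Of 11 smooth muscle and pericyte markers 6 passed the filter. Their summed level over the list was 7458 (ns) and 3844 (p73 shRNA) at 40% and 6344 and 3124 at 100%, of which ACTG2 makes the largest share on the ns arrays. ACTA2, the vascular smooth muscle actin, had -0.48 and -0.03, and smoothelin, SMTN, 0.04 and -0.04. In these arrays of whole cultures, fewer cells of a kind and less RNA per cell cannot be told apart.

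The ACTG2 promoter is shown because ACTG2 had the lowest ratio and its window holds 2 CArG boxes, the element bound by serum response factor, in capitals. It lies on the plus strand at chr2:73892758-73893057 in GRCh38.p14.
ACTG2: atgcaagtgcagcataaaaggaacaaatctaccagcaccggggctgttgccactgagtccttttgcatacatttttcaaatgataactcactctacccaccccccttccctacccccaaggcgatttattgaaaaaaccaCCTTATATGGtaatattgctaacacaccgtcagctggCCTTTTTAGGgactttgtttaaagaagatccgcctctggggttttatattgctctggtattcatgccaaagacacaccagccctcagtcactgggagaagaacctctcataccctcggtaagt
The CArG box, searched on both strands, was in 1.19% of promoters of genes above the filter and in 3 of the 63 (4.76%) with a promoter that were at least 2-fold lower at 40%. Of genes at least 1.5-fold lower it was in 1.05%. The median GC content was 64.7% for genes 2-fold higher, 64.3% for genes 2-fold lower and 65.7% for all genes above the filter.

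Genes of division and growth showed single members past 1.5-fold, beside 6.63% of all genes lower and 4.81% higher. Of 47 G1/S and replication genes 3 were lower: BRIP1, GMNN, which holds back replication licensing (3083 and 1801, -0.77; -0.35 at 100%), and RFC5, a clamp loader subunit (-0.64 and -0.27). Other probe sets of RFC5 gave -0.52 and 0.07 at 40%. Of 55 G2/M genes 4 were higher and 2 lower. The mitotic kinase CDK1 was at 2472 and 4012 (0.70) and at 4725 and 3947 (-0.26), but its other probe sets gave 0.17 and -0.12. The phosphatases CDC25C (0.67 and -0.08) and CDC25B (0.64 and 0.06) and the kinesin KIF14 (0.66 and 0.07) were also higher. None of these 4 was past 1.5-fold at 100%. A second CDC25C probe set gave 0.21 at 40%. NDC80 of the kinetochore (-0.67 and 0.16) and the spindle checkpoint protein MAD2L1 (-0.59 and 0.16) were lower. Of 20 cyclins, inhibitors and pocket proteins 2 were lower. CCND1, cyclin D1, was at 1853 and 934 (-0.98) and at 533 and 360 (-0.55), and the retinoblastoma gene RB1 at 1065 and 576 (-0.87) and at 1234 and 943 (-0.38). Among 26 apoptosis regulators BAD, the death receptor adaptor FADD (0.72 and 0.19) and the pore former BAK1 (0.64 and 0.11) were higher, and the decoy receptor TNFRSF11B (-0.67 and -0.30) was lower.

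Stress and metabolic lists had medians near 0 with some named exceptions, again beside 6.63% of all genes lower and 4.81% higher. Of 37 amino acid stress and tRNA synthetase genes 5 were lower and 2 higher. The lower ones included the stress factor NUPR1 (-0.82 and -0.26), asparagine synthetase ASNS, at 929 and 560 (-0.72) and at 379 and 342 (-0.14), PSAT1 of serine synthesis (-0.62 and 0.35) and SLC1A4. The synthetases WARS1 (0.75 and 0.25) and SARS1 (0.60 and -0.18) were higher, and a second WARS1 probe set gave 0.25 at 40%. Of 50 splicing factors 4 were lower and 0 higher. SRSF11 was at 5032 and 2097 (-1.26) and at 5801 and 3272 (-0.82), with its other probe sets at -0.75 and -0.36, and CLK1, a kinase of splicing factors, at 360 and 202 (-0.80). SRSF11 was thus lower on all 3 of its probe sets. HNRNPA3 (-0.78) and RBM25 (-0.61) were also lower at 40%, but other probe sets above the filter ran up to 0.18 and 0.08. Of 28 oxidative stress genes 2 were higher, SQSTM1 and GSTM1. Of 30 sterol and fatty acid genes DHCR7 (0.83 and 0.10) and the isomerase IDI1 (0.74 and 0.45) were higher and HMGCS1 (-0.66 and 0.20) lower. Second probe sets gave -0.03 for DHCR7, 0.28 for IDI1 and -0.22 for HMGCS1 at 40%. Of 33 NF-kB and cytokine genes 4 were lower and 2 higher. The cyclooxygenase PTGS2 was at 611 and 314 (-0.93) and at 1448 and 935 (-0.62). The NF-kB inhibitor TNIP1 was at 726 and 1395 (0.93) and at 1839 and 1893 (0.04). REL (-0.70), CXCL5 (-0.61) and PTX3 (-0.59) were also lower at 40% and NFKBIE (0.69) higher. A second CXCL5 probe set gave 0.33. Of 10 complement genes CLU (-1.04 and -1.005) and CD55 (-0.77 and -0.30) were lower and C1S (0.63 and 0.30) and SERPING1 (0.72 and -0.62) higher. The third CLU probe set gave 0.48 at 40%, and the second of CD55 gave -0.36.

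Among 10 metallothioneins and zinc transporters, MT1HL1 was the one past 1.5-fold higher and the zinc exporter SLC30A1 the one lower, at 964 and 453 (-1.07) and at 275 and 256 (-0.10). MT2A was at 12382 and 17777 (0.52) and at 10838 and 13032 (0.27). The list's median of 0.51 was 0.28 after quantile and 0.32 after loess correction. That of heat shock proteins and chaperonins, 0.01 as deposited, was -0.18 and -0.20. Of 5 potassium channels and regulators, KCNK1 was the one lower and KCNK2, a relative of the same channel family, the one higher, at 223 and 385 (0.76) and at 168 and 214 (0.33).

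The confluent pair shares no array with the sparse pair and gives each gene a second ratio. Of the 43 genes at least 2-fold higher at 40%, 26 (60.5%) were above 0 at 100%, where 49.8% of all genes were. Of these 43, 9 (20.9%) were at least 1.5-fold higher at 100%, where 1.89% of all genes were. Of the 78 lower genes 58 (74.4%) were below 0 and 22 (28.2%) at least 1.5-fold lower, where 2.29% of all genes were. In each direction 1 gene was 1.5-fold the opposite way, SIK2 among the higher and SBNO1 among the lower. The 9 were MT1HL1, MX2, SOX12, LAMA4, OAS1, LPAR3, TRIM22, IFITM1 and FHL3. LPAR3, a receptor of lysophosphatidic acid, was at 248 and 544 (1.10) and at 153 and 301 (0.93). The 22 lower genes were ACTG2, SLC38A4, JAG1, TCIM, KCNK1, IGFBP5, LUM, CADM1, LCP1, TGFB2, RWDD3, EDN1, MET, SRSF11, ATXN1, GOLGA8A, MAGOH2P, ABCA11P, PIEZO2, TRHDE, MARCHF6 and CLU. Most of the 43 and of the 78 thus did not reach 1.5-fold in the confluent pair, and whether their ratios differ between the stages was not tested. SOX12, MX2 and OAS1 had both ns arrays below the filter intensity of about 111 and passed through their p73 shRNA arrays. KCNK1, CADM1 and JAG1 had both p73 shRNA arrays below it and passed through their ns arrays. How far the filter sets the shares at 100% was not tested.

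**Figure D5:**
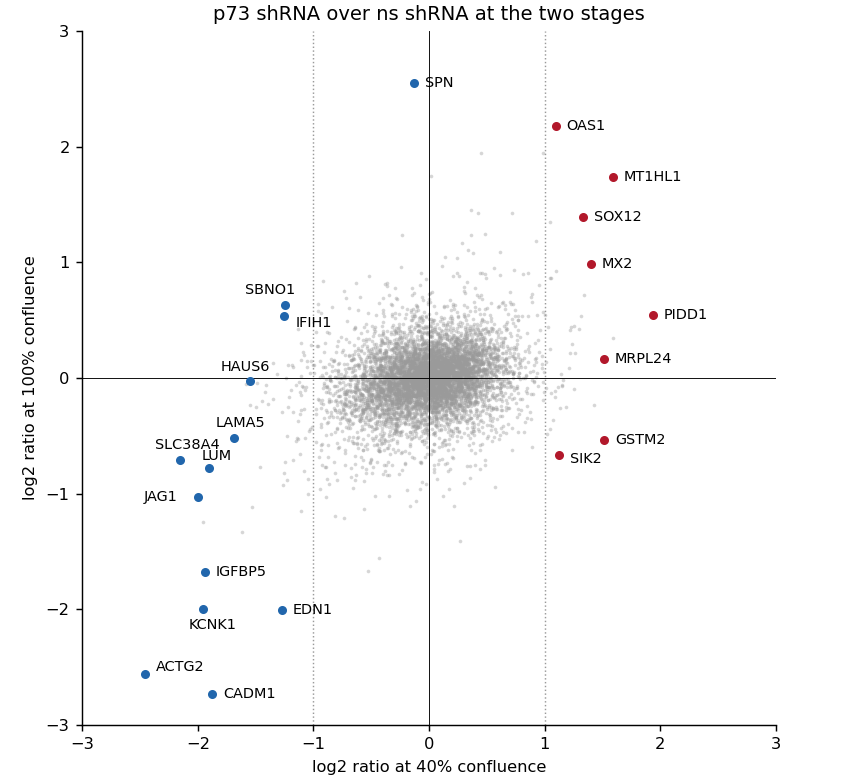
Log2 ratio of p73 shRNA over ns shRNA at 100% confluence against that at 40%, 1 point per gene for 6759 genes, with dotted lines at 2-fold for 40%; the pairs share no array. ACTG2, CADM1 and KCNK1 are low on both axes and MT1HL1, SOX12 and OAS1 high on both, whereas HAUS6 and MRPL24 lie near 0 on the vertical axis and SPN near 0 on the horizontal one.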

How the data were processed

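Per the labels, trizol was used to extract total RNA, which was biotin-labelled by Affymetrix's standard method. The deposited values are linear intensities, 1 per probe set and array, as the authors gave them. The summarising software and its scaling are not given in the sources used here. A mean of 500.1 to 500.2 after trimming 2% from either end of each array shows a common scaling, which does not equalise the upper end, so a shift common to most genes would be hidden.

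Of 22277 probe sets 62 were controls. In the array annotation 19064 had 1 gene symbol, 1043 several and 2108 were not listed, and the last 2 kinds were not named. Some items are not reported here. A gene took its brightest probe set over the 4 arrays, and genes entered when that mean reached the median of the other 22215 probe sets. Groups came from the sample titles. Ratios were computed in Python 3.11.15 with numpy 2.4.6, pandas 2.3.3 and statsmodels 0.14.6 (loess span 0.3), and figures with matplotlib 3.10.9. No test was run, because each group is 1 array. The ratio and count steps were checked on simulated data.

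Genes named are the preset TP73, MDM2, KCNK1, CDKN1A, CDKN1B, ACTG2, ACTB, CADM1 and IGFBP5, the 25 highest and 25 lowest ratios, the 12 highest and 12 lowest by the probe set nearest to 0 where all share a direction, the 10 highest and 10 lowest stage differences, and for each list as many as 6 genes with the largest ratios. Other list members and genes nearest to 2-fold were named after their values were seen, to complete a count or show a range. The 46 lists, 40 of pathways and 6 of markers, and the members were chosen with earlier results of these data known. Alternatives were quantile normalization, a loess correction, another pseudocount (5th or 40th percentile), no filter, a filter at the 70th percentile or on the 40% arrays only, and averaging all probe sets of a gene. Promoters are RefSeq's for GRCh38.p14. Precision is limited by having 1 array per group.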

Additional observations from a re-analysis of the deposited data

Results flagged for a closer look

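The difference between the ratios at 40% and at 100% confluence stood out for 6 named genes whose ratios were on opposite sides at the stages, at least 1.5-fold each way. It was not tested, since each ratio rests on 1 array per group. For SBNO1 the ratio at 40% minus that at 100% was -1.88 (-1.25 and 0.63), with intensities of 204 and 79.0 and then 149 and 237. SNX11, a sorting nexin, had a difference of -1.76 (-0.92 and 0.84), and its second probe set gave 0.60 and 0.20. XRCC2, a recombination repair protein, had -1.60, with 172 and 83.2 at 40% and 117 and 188 at 100%. The salt-inducible kinase SIK2 had 1.80, with 58.9 and 142 and then 238 and 145. The S6 kinase RPS6KB2 had 1.49, with 152 and 292 and then 172 and 110. The complement inhibitor SERPING1 had 1.34, with 49.0 and 88.0 and then 337 and 214.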

How the results depend on the processing

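No paired analysis was possible because the comparison at 40% confluence holds 1 pair of arrays. A model over both stages would test their average and not this pair, and was not run. Leaving out an array leaves no ratio. The count of genes at least 2-fold higher, 43, was 20 with the pseudocount at the 40th percentile, 690 without a brightness filter and 12 with a filter at the 70th percentile. The count of lower genes, 78, was 45, 658 and 25 under the same settings and 45 with the mean of probe sets. At 1.5-fold, 325 higher and 448 lower genes became 1523 and 1543 without a filter and 136 and 208 with the filter at the 70th percentile, which tests fewer genes. The interferon count of 13 was 6 with that filter. The ribosomal protein count of 7 was 0 after quantile and 0 after loess correction, and the median of 0.37 was 0.020 and 0.12. The standard deviation within genes at 40%, 0.35, was 0.62 without a filter. Turned in sign were the potassium channel median, -0.046 with the filter at the 70th percentile, CXCL5 at 0.16 and RPL37A at -0.31 with the mean of probe sets, where the dim probe sets weigh as much as the bright one. Of the 50 genes named by size, those with a value kept their direction in all 8 settings, but only 12 had a value with the filter at the 70th percentile and 42 with the filter on the 40% arrays. Of the named 50, 40 stayed 2-fold with the pseudocount at the 40th percentile and 32 of 39 with the mean of probe sets. Dim genes are limited by signal over background, and those left out by the filter are not shown to be absent or equal.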

Other observations

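Zinc finger genes were looked at after ZNF184 and ZNF426 appeared among the lowest 25, so the set was chosen after values were seen and its counts are a description. Of 117 genes above the filter whose symbol is ZNF and a number, 15 (12.8%) were at least 1.5-fold lower with p73 shRNA at 40% confluence, against 6.63% of all genes, and 3 higher, against 4.81%. Their median ratio was -0.12 as deposited, -0.10 after quantile normalization and -0.07 after loess correction. At 100% it was -0.08, with 2 lower and 2 higher. These genes are dim, with a median intensity of 241 on the ns array at 40% against 611 over all genes, and dim genes had the widest spread of ratios, a part that was not tested.

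SPN, HABP4 and WDR62 had a ratio in confluent cells and little in sparse ones. SPN, the leukocyte sialoprotein CD43, was at 205 and 186 at 40% (-0.13) and at 20.98 and 179 at 100% (2.55), so the ns array at 100% was the single low array. HABP4, a hyaluronan-binding protein, was at 162 and 165 (0.02) and at 40.5 and 163 (1.74), with the same array low. WDR62, a centrosomal protein, was at 206 and 250 (0.27) and at 133 and 42.9 (-1.41), with the p73 shRNA array at 100% low. HSPG2, the basement membrane proteoglycan perlecan, went the other way, at 169 and 354 in sparse cells (1.02) and at 577 and 409 in confluent ones (-0.49). No explanation was tested for these.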
